A study of Mus musculus with 2 samples.

Results

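Chromosome 13 of the mouse holds a large set of zinc finger genes, whose proteins grip DNA with repeated small domains, each held together by a zinc ion bound to cysteine and histidine residues. H3K9me3, trimethylation of lysine 9 of histone H3 and a mark of silent chromatin, was mapped over these genes by ChIP-seq in E14TG2a.4, a line of mouse embryonic stem cells. A gene was counted as a member when it was protein-coding, lay on chromosome 13 and had a symbol beginning with Zfp and a digit, with or without a suffix. In the mm9 annotation, GENCODE M1, 38 of 22367 protein-coding entries met this rule, with 36 symbols, since Zfp708 and Zfp738 each have 2 entries. In the mm10 annotation, RefSeq GRCm38.p6, 37 of 21887 genes met it, and 32 symbols were shared by both. Zfp131, Zfp729a and Zfp729b were members in mm10 only, and Zfp187 and Zfp192 of mm9 carry other names there by RefSeq synonyms, Zscan26 and Zkscan8.

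The series holds 1 group of 2 biological replicates, each with its own biosample, of a male line that the labels trace to 1 donor of strain 129/Ola at 3.5 days of embryonic age. There is no second condition, and no control library was analysed here, so no test between groups was possible and members are described by counts beside the same counts for other genes. The deposited files were lists of enriched regions, with no read counts, so the depth is unknown. In mm9 the lists held wide regions, 43006 in replicate 1 and 53405 in replicate 2, and in mm10 narrow peaks, 161565 and 198948. A base of mm9 is called shared here when regions of both replicates covered it, and the authors' replicated list, 123489 peaks, was used in mm10. The marker lists cannot check the label here, since a list of a silencing mark gives only promoter status and few genes carry it. Of 7 stem cell marker entries found, shared regions reached 0 within 1 kb of a start site, and of 6 fibroblast entries they reached 2, Lum and S100a4, where the share over all protein-coding genes was 5.54%.

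Many zinc finger proteins of rodents also carry a KRAB domain, which binds the corepressor Trim28. Trim28 brings the methyltransferase Setdb1, which deposits H3K9me3, and this route is known to silence retroviral elements in embryonic stem cells. Zinc finger genes are themselves known targets: in human cells H3K9me3 and TRIM28 have been found over the 3′ exons that encode the fingers. The genes arose by repeated duplication, so neighbours often have similar sequence. Of the 37 mm10 members 17 carry a synonym beginning with Rsl in RefSeq, after the regulators of sex-limited protein of mouse liver, and all 17 lie in 1 group. Zfp429 is Rsl2, one of these regulators.

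The members fell into 10 groups along mm9 chromosome 13 when bodies less than 1 Mb apart were joined. The group from Zfp640 to Zfp273 held 24 of them in 1156 kb, at chr13:66771705-67927937. A compact group of 3, Zfp808, Zfp935 and Zfp934, spanned 390.6 kb at chr13:62231276-62621904. Zfp187, Zfp192 and Zfp184 formed another group of 3, Zfp72 and Zfp825 a pair, and Zfp322a, Zfp169, Zfp346, Zfp367, Zfp369 and Zfp366 lay alone.

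The sequences that follow show the repeated unit of 84 bases, 1 finger long, that makes up much of the last coding exon of most members. Each starts at the first copy in the last coding exon of the linker motif GGAGAGAAA, which joins neighbouring fingers and is in capitals. All are read 5′ to 3′ on the coding strand of mm9, and none need be the first finger of its gene. The Zfp748 stretch codes for methionine where the others have the first histidine of the finger, and for tyrosine where they have the second. The first 3 were covered by shared regions over all 84 bases, and the last 2, from a stretch with no shared region, over 0 bases. They lie at chr13:62272871-62272954 on the plus strand (Zfp808) and, on the minus strand, at chr13:62556193-62556276 (Zfp935), chr13:62619646-62619729 (Zfp934), chr13:67592164-67592247 (Zfp58) and chr13:67643176-67643259 (Zfp748).
Zfp808: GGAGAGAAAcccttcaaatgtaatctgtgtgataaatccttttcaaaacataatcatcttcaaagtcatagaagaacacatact
Zfp935: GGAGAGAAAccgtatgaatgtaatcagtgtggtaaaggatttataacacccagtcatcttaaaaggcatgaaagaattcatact
Zfp934: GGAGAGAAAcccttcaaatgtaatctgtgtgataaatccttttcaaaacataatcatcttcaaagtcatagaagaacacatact
Zfp58: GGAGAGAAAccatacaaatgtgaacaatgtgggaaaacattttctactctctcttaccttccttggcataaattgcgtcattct
Zfp748: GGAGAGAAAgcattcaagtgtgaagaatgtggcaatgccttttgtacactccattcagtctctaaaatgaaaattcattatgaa

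The units of Zfp808 and Zfp934 were identical at 84 of 84 bases. Zfp935 matched Zfp808 at 63 bases, Zfp58 at 53 and Zfp748 at 43. The longest run that the last coding exons of Zfp808 and Zfp934 had in common was 200 bases, against 54 between Zfp808 and Zfp935 and 30 between Zfp808 and Zfp58. The linker motif, searched on the coding strand with overlaps allowed, was present in the last coding exon of 30 of 38 members, in 144 copies, and in 14 of 828 other protein-coding genes of chromosome 13, which is 1.69%.

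Of the 38 members 7, or 18.4%, had a shared region within 1 kb of an annotated transcription start site, called a marked promoter here. Over all protein-coding genes the share was 5.54%. Other protein-coding genes of chromosome 13 had 57 of 828, or 6.88%, and Zfp genes of other chromosomes 38 of 333, or 11.4%, with 11 of 87 on chromosome 7 and 3 of 45 on chromosome 17. Replicate 1 alone marked 7 members and replicate 2 alone 8, and 30 were marked in neither list. Among the 7 entries were Zfp808, Zfp935 and Zfp934, which are the whole of their group, and Zfp708 with both entries and Zfp273 in the large group. Genes of 1 group lie close together and can share regions, so the 7 are not independent.

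The strength of each region is the fold enrichment that the authors gave it, a linear ratio. The sources used here do not say what it is relative to. At Zfp808 it was 4.38 in replicate 1 and 5.90 in replicate 2, 5.14 ± 1.07 (SD, n = 2). Zfp934 had 2.68 and 6.63, the widest difference between replicates among the 7. Zfp808 was thus the strongest in replicate 1 and Zfp934 in replicate 2.

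The Zfp708 entry ENSMUSG00000074824.1, at chr13:67199100-67214917, had 4.23 in replicate 1 and 4.82 in replicate 2, and the entry ENSMUSG00000058883.7, at chr13:67170336-67198912, had 2.48 and 2.67. The Zfp708 gene of mm10 is 28.6 kb long, as is ENSMUSG00000058883.7 in mm9, whereas ENSMUSG00000074824.1 is 15.8 kb. The stronger promoter may thus belong to an entry outside the Zfp708 of mm10, which was not tested. Zfp708 is known to repress a family of retrotransposons. Zfp935 had 3.47 and 3.98. Zfp273 was the weakest of the 7, at 2.21 and 2.20. Replicate 2 had the higher value at 6 of the 7 promoters, all but that of Zfp273.

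**Figure D1:**
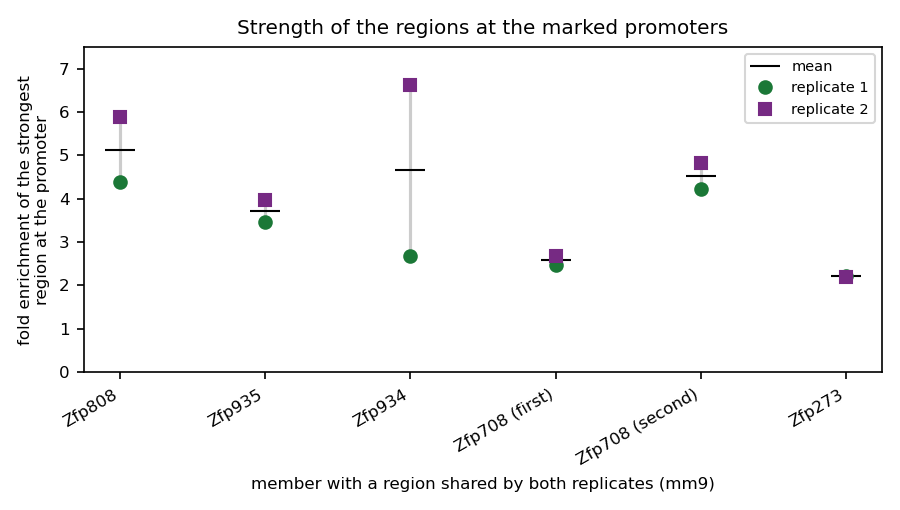
Fold enrichment of the strongest region at 6 of the 7 marked member promoters in mm9, with circles for replicate 1, squares for replicate 2 and dashes for their mean (n = 2). Zfp708 (first) is the entry ENSMUSG00000058883.7 and Zfp708 (second) is ENSMUSG00000074824.1. Zfp934 shows the widest gap between replicates, 2.68 and 6.63, and Zfp273 the narrowest, 2.21 and 2.20.

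The start site itself was covered in 4 of the 7 entries. At Zfp808 the shared region began 525 bp inside the gene and ran over 57.6 kb, at chr13:62231801-62289400, the widest region at any member promoter. At Zfp273 it lay 259 bp from the nearest start site. With only the 5′ end of each gene counted, 4 entries had a marked promoter, among them Zfp808, Zfp934 and the second Zfp708 entry. Zfp935, the first Zfp708 entry and Zfp273 were marked at a start site further inside the gene. Annotation also differed between builds: Zfp934 runs over 3.22 kb in mm9 and 62.5 kb in mm10, so its mm9 start site lies inside the longer gene model.

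The windows that follow run from 250 bases before to 50 bases after the 5′ end of the mm9 entry, on the minus strand, with CpG sites in capitals. That of Zfp934 lies inside the longer mm10 gene model, so it need not hold a promoter. Zfp934, at chr13:62621855-62622154, and the second Zfp708 entry, at chr13:67214868-67215167, were the only 2 of 38 such windows that shared regions covered in full, and the other 36 had no covered base. Zfp748, at chr13:67654016-67654315, is shown as one of those 36.
Zfp934: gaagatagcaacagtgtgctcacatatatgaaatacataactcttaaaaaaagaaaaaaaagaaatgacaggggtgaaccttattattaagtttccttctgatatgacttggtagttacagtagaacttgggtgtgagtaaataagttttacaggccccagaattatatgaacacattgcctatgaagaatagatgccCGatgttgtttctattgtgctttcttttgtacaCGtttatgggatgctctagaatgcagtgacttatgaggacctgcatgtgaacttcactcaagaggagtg
Zfp708: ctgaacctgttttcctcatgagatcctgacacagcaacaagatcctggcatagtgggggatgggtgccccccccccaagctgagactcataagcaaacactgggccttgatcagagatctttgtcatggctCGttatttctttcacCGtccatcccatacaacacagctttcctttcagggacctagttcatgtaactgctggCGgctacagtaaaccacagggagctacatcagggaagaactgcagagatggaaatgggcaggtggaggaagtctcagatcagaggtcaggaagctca
Zfp748: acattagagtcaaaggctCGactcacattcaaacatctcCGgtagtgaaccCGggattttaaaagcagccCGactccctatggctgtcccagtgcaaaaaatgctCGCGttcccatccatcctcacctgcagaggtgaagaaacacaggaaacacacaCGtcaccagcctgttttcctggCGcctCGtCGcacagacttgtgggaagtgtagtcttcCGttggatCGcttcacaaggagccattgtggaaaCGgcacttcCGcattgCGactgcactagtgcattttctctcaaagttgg

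The covered windows of Zfp934 and Zfp708 held 2 and 3 CpG sites, and Zfp748 held 15. Covered windows were too few, and that of Zfp934 too uncertain as a promoter, to compare CpG content by coverage. Over the 36 windows with no covered base the median was 8, with a range of 1 to 36. In RefSeq windows of the same layout in GRCm38.p6, 38 windows of 31 members had a median of 9.5 CpG sites, against 7 over 32851 windows of all genes.

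Among the 31 entries without a marked promoter, the nearest shared region lay a median of 14.7 kb from a start site, and 25 were over 10 kb away. Zfp953 came closest, at 1209 bp. Zfp346, which encodes a protein that binds double-stranded RNA, followed at 2672 bp and Zfp458 at 2797 bp. The farthest was at 47.2 kb, and 5 entries lay within 5 kb. One entry of Zfp738 had a region in replicate 2 only, at a fold enrichment of 3.39.

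Shared regions lay on a coding exon of 10 of the 38 members, or 26.3%, where the share over all protein-coding genes was 8.64%. Other genes of chromosome 13 had 76 of 828, or 9.18%, and Zfp genes of other chromosomes 56 of 333, or 16.8%. The 10 were Zfp808, Zfp935, Zfp934, Zfp273, Zfp455, both Zfp708 entries, Zfp953, Zfp874a and Zfp369, the last of which encodes a protein that interacts with a neurotrophin receptor. In Zfp934 shared regions covered 100% of the coding sequence, in Zfp808 99.9%, in Zfp935 85.4% and in Zfp273 79.4%. Zfp455 had 28.1% covered, and the remaining 5 had 2.82% to 9.23%.

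Of all coding bases of the members 11.4% were covered, with 13.9% in replicate 1 and 12.3% in replicate 2. Without Zfp808, Zfp935 and Zfp934 the share was 3.75%, with 6.45% in replicate 1 and 4.71% in replicate 2. Other genes of chromosome 13 had 2.67% and Zfp genes of other chromosomes 12.6%.

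Coverage was also set out by part of the gene. In the members the last coding exon, where most fingers are encoded, was covered over 12.8% and the introns over 13.3%, with 7.34% of earlier coding exons and 7.88% of promoter bases. Zfp genes of other chromosomes had 15.7% in last coding exons and 5.34% in introns, with 7.26% in earlier coding exons and 4.77% at promoters. Coverage of the members was thus about as high in introns as in last coding exons, while elsewhere the Zfp genes had more in last coding exons. Without Zfp808, Zfp935 and Zfp934 the members had 3.89% of last coding exons and 3.83% of introns covered, with 3.34% of earlier coding exons and 3.91% of promoter bases. Last coding exons of these other members had 7.55% in replicate 1 alone and 4.88% in replicate 2 alone, against 6.26% and 7.15% for other genes of chromosome 13, so the replicates differed on which set was higher. Other genes of chromosome 13 had 5.99% in last coding exons and 4.03% in introns.

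**Figure D2:**
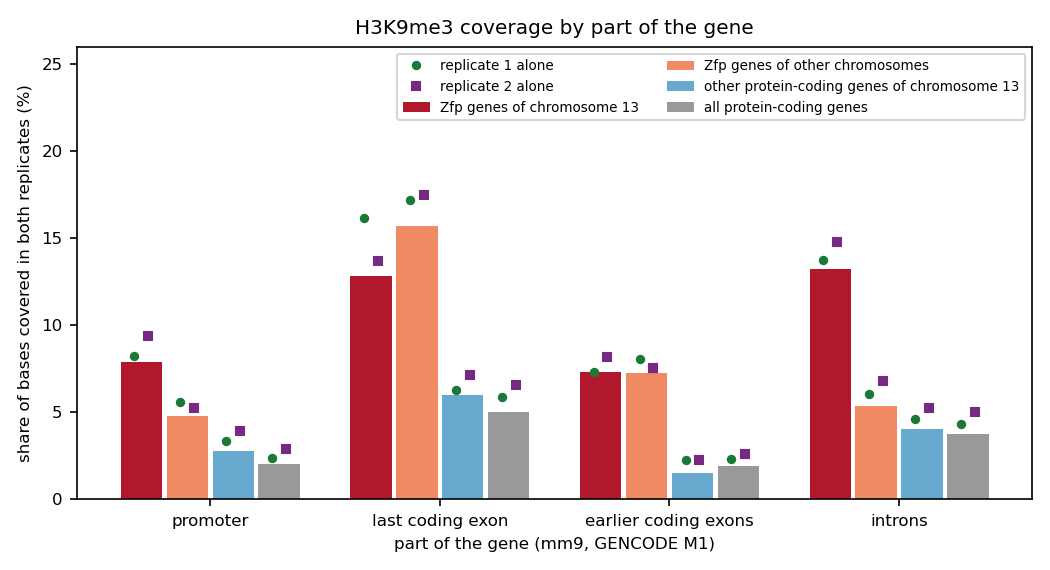
Share of bases covered by H3K9me3 in both mm9 replicates (bars), and in each replicate alone (points), for promoters, last coding exons, earlier coding exons and introns of 4 gene sets. Zfp genes of chromosome 13 had 13.3% of intron bases covered in both replicates, above the 5.34% of Zfp genes elsewhere, while last coding exons had 12.8% and 15.7%. Without Zfp808, Zfp935 and Zfp934, not drawn, the intron share of chromosome 13 was 3.83%.

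The translated coding sequences of the members held 449 motifs of the C2H2 finger type, 2 to 23 per gene with a median of 11, and 417 of these, or 92.9%, were encoded in the last coding exon. Shared regions covered 59 of the 449, or 13.1%, in 5 genes. A motif was counted as covered when its first coding base lay in a shared region. All 22 fingers of Zfp808, all 8 of Zfp935 and all 11 of Zfp934 were covered, and with them 14 of the 15 of Zfp273. In Zfp455 4 of 11 were covered. Zfp748, which had the most fingers at 23, and Zfp712, Zfp458 and Zfp738, each with an entry of 20, had none covered. In the first Zfp708 entry the last coding exon is only 39 bp long and holds none of its 15 fingers.

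Over whole gene bodies in mm9 the 3 genes of the compact group had the highest coverage of all members. Zfp934 was covered over 100% in each replicate, Zfp808 over 98.8% in each and Zfp935 over 87.7% in each. Zfp273 had 58.7% in replicate 1 and 52.6% in replicate 2. Zfp369 had 22.8% in replicate 1 and 11.0% in replicate 2. Of the 38 entries 26 had no shared base in the body, a count that was not made over all protein-coding genes. Among these, Zfp712, Zfp759 and 1 Zfp738 entry had regions in replicate 2 only, over 8.86%, 7.37% and 12.2% of the body. Some bodies overlap in mm9, such as those of Zfp953 and Zfp456, and share covered bases.

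**Figure D3:**
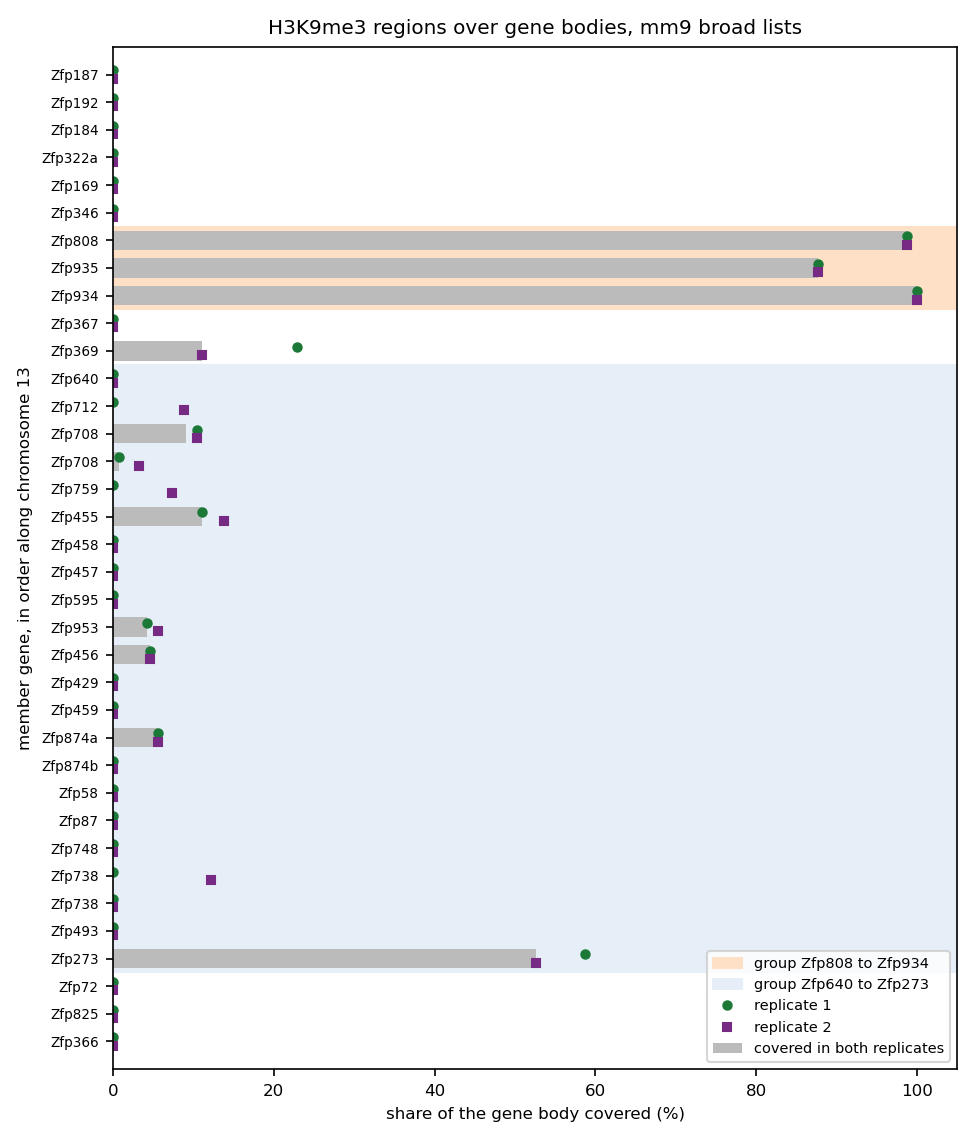
Share of the body of each mm9 member drawn covered by H3K9me3 regions, in percent, in order along the chromosome, with circles for replicate 1, squares for replicate 2 and bars for bases covered in both. Zfp808, Zfp935 and Zfp934 reach 87.7% or more, Zfp273 52.6% in both replicates, and most of the others show no bar.

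In mm10, where peaks are narrow, replicated peaks covered at least 10% of the body in 5 of 37 members, or 13.5%, and in 5.34% of all protein-coding genes. Other genes of chromosome 13 had 48 of 792, or 6.06%, and Zfp genes of other chromosomes 58 of 360, or 16.1%. Replicate 1 alone put 2 members past 10% and replicate 2 alone 6. A replicated peak lay anywhere in the body of 19 members, or 51.4%, where the share over all protein-coding genes was 30.8%. Other genes of chromosome 13 had 33.8% with one and Zfp genes of other chromosomes 36.9%. Long genes reach a peak more easily, and length was not adjusted for.

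Zfp935 had the most covered body, 29.2% of 13.8 kb, with 20.4% in replicate 1 and 29.9% in replicate 2. Zfp808 had 23.0%, with 14.9% and 26.7%, and Zfp934 11.4%, with 8.51% and 13.8%. Replicate 2 covered more than replicate 1 in each of the 3. Zfp273 had 11.2%, with 5.74% and 12.7%, and Zfp169 10.3%, with 8.70% and 11.3%.

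Members below 10% included Zfp729a with 8.47%, Zfp712 with 7.95%, Zfp953 with 4.14% and Zfp708 with 3.37%. Over all 37 members replicate 2 covered more of the body than replicate 1 in 19, and less in 1, Zfp759. Zfp169 had no shared region in its mm9 body of 17.7 kb, and its mm10 body is 32.7 kb long.

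The pooled bodies of the members were covered over 4.76% by replicated peaks, with 3.39% in replicate 1 and 5.67% in replicate 2. Without Zfp808, Zfp935 and Zfp934 the share was 2.61%. Other genes of chromosome 13 had 2.63%, Zfp genes of other chromosomes 4.61% and all protein-coding genes 2.27%. The median member had 0.592% covered, and the median other gene 0%. Outside the compact group the pooled share was close to that of other chromosome 13 genes, but the comparison is uneven. The group was removed after its values were seen, while the other sets kept their most covered genes.

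**Figure D4:**
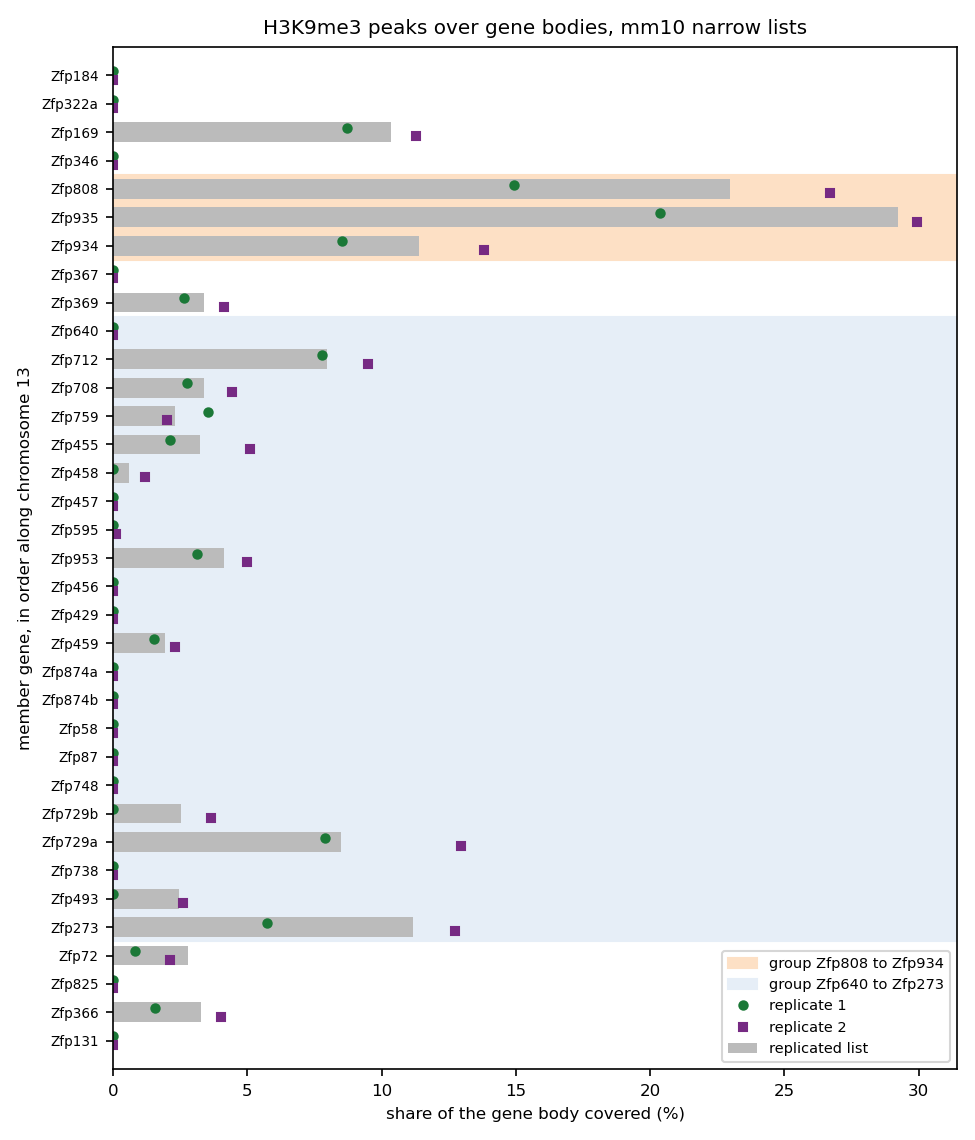
Share of the body of each mm10 member drawn covered by narrow H3K9me3 peaks, in percent, in order along the chromosome, with circles for replicate 1, squares for replicate 2 and bars for the authors' replicated list. Zfp935 is the highest at 29.2%, and many members have no bar.

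Of the members 4 had a replicated peak with a fold enrichment of 10 or more, among them Zfp808, Zfp455 and Zfp934. The same count was not made over all protein-coding genes, so the 4 cannot be called many or few. Of 79 replicated peaks in member bodies, with a median width of 380 bp, 47 lay in Zfp808, Zfp935 or Zfp934. The strongest peak of Zfp808, at chr13:62135643-62136666 (mm10), had 11.9, with 7.54 in replicate 1 and 13.9 in replicate 2. Zfp455 had 10.8 at its 3′ end, at chr13:67209131-67210882, and Zfp934 10.1 at chr13:62542505-62543193. Most of the Zfp455 peak lies past the end of the gene, at 67209298. The other 15 members with a peak had none of 10 or more.

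At promoters in mm10, 1 of the 31 members with a RefSeq start site had a replicated peak within 1 kb, or 3.23%, where the share over all protein-coding genes was 5.89%. Zfp808, Zfp935, Zfp708 and Zfp273, marked in mm9, had their nearest mm10 peak 2395, 4225, 4753 and 5958 bp from a start site, and Zfp934 had no start site in the table used. The 2 promoter counts differ in peak list, build and start sites at once, whose parts in the difference were not tested.

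Some members had no mark over the body. Zfp131, a BTB zinc finger gene, Zfp184, Zfp322a, Zfp346 and Zfp367 had 0% of the body covered in both replicates. They come first in symbol order among the 18 members without a replicated peak in the body. Each lay alone in its stretch of mm10, but so did Zfp169, Zfp369 and Zfp366, which had peaks. In the large group 12 of 24 members had a replicated peak in the body, where the share over all protein-coding genes was 30.8%. Zfp322a has a known role in keeping mouse embryonic stem cells pluripotent. In all, 18 members had no replicated peak in the body, and 17 had none in either replicate as well.

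Within the large group, Zfp874b, Zfp58, Zfp87 and Zfp748 lay side by side in a stretch of 98.0 kb with no shared region in mm9, at chr13:67566601-67664600. The same 4 genes lay in a stretch of 98.8 kb with no replicated peak in mm10. Replicate 1 had 0 regions there in both builds, and replicate 2 had 1 region of 600 bp in mm9 and 3 peaks of 595 bp in all in mm10. A second mm9 stretch, of 78.8 kb, held Zfp429 and Zfp459.

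The compact group was covered far beyond its genes. In mm9 shared regions took up 58.8% of the span from Zfp808 to Zfp934, with 62.5% in replicate 1 and 61.5% in replicate 2, and chromosome 13 from its first to its last region had 8.82%. Within the span the member bodies had 96.5% and the sequence between them 52.1%. Both other protein-coding genes of the span, Gm17352 and Gm3604, had a marked promoter, where the share over all protein-coding genes was 5.54%. They lie inside the covered span, so they are not independent of its coverage. In mm10 the span had 16.4% covered, with 11.8% in replicate 1 and 17.7% in replicate 2, and the chromosome 4.40%.

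In the large group the member bodies were covered less than the sequence between them. In mm9 the bodies from Zfp640 to Zfp273 had 5.28% and the sequence between them 14.4%, with 11.5% over the span. The same held in the mm9 groups from Zfp187 to Zfp184, with 0% over the bodies and 10.2% between them, and from Zfp72 to Zfp825, with 0% and 8.27%. Words of 32 bases that occur only once in mm9 made up 80.0% of the bodies of the large group and 58.8% of the sequence between them, and their part in this was not tested. In mm10 the bodies of the large group had 2.62%, the sequence between 5.30% and the span 4.25%. The group from Zfp72 to Zfp825 went the other way in mm10, with 1.62% over the bodies and 0.730% between them. Of 14 other protein-coding genes in the mm9 span of the large group 1 had a marked promoter, 4930441O14Rik, beside 5.54% of all protein-coding genes. Of the 17 members with an Rsl synonym, all in this group, 8 had a replicated peak in the body and 1, Zfp273, at least 10% covered. Over all protein-coding genes the shares were 30.8% and 5.34%.

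A list of 22 symbols, with 23 mm9 entries, took in the Trim28 and Setdb1 route with other H3K9 methyltransferases, demethylases, DNA methylation genes and chromatin factors, and 1 entry had a marked promoter. It was an entry of Atf7ip, which encodes a partner of Setdb1, with 3.86 in replicate 1 and 5.39 in replicate 2. Trim28, Setdb1 and the other genes of the list had none. The share over all protein-coding genes was the 5.54% given above.

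The members also differed in how much of their sequence has copies elsewhere in the genome. A 32-base word that occurs once in mm9, on either strand, is called unique here. Unique words made up 26.2% of the body of Zfp934, 27.2% of Zfp808 and 47.8% of Zfp935, against 91.0% of Zfp748 and 94.3% of Zfp58. The median over bodies was 61.3% for the 7 entries with a marked promoter, with a range of 26.2% to 96.6%, and 85.4% for the other 31, with a range of 8.39% to 99.5%. The ranges overlapped: both marked Zfp708 entries were 91.2% and 96.6% unique, and unmarked Zfp825 and Zfp429 were 47.2% and 55.5%. Zfp640 was the least unique member, at 8.39%, and had no shared region. In last coding exons the median was 82.6% for the members, against 99.9% for Zfp genes of other chromosomes and 100% for other genes of chromosome 13.

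The span of the compact group was 42.1% unique and that of the large group 65.6%. The sources used here do not say how reads with several matches were treated. The part of such reads in the coverage of Zfp808, Zfp935 and Zfp934, or in the lack of regions at Zfp640, was not tested.

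**Figure D5:**
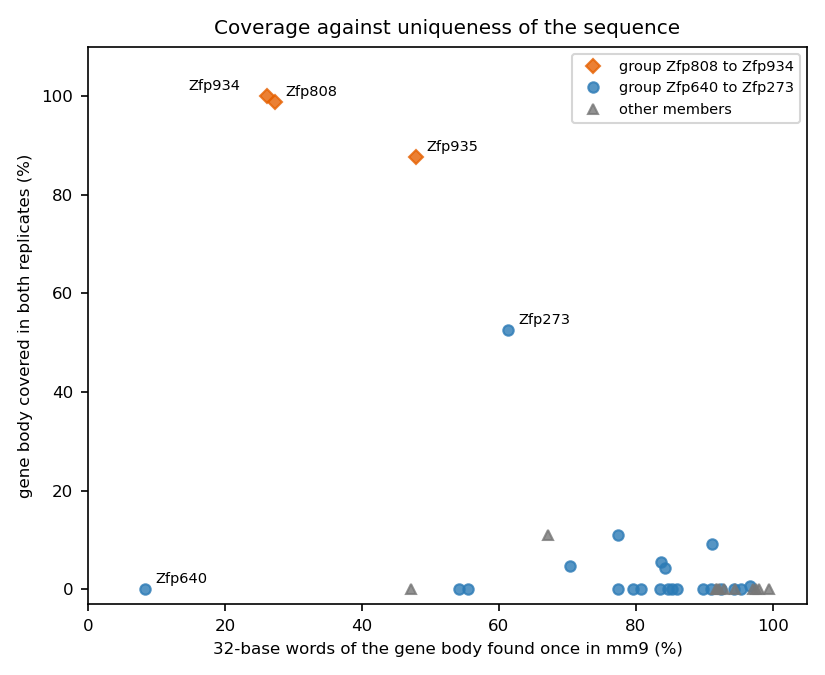
Share of the body of each mm9 member drawn, covered in both replicates, in percent, against the share of its 32-base words that occur once in the genome, in percent. Diamonds are the 3 genes of the group Zfp808 to Zfp934, circles the group Zfp640 to Zfp273 and triangles the other members. The 3 diamonds lie at 26.2% to 47.8% unique words with 87.7% or more covered, and Zfp640, at 8.39% unique, has no coverage.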

How the data were processed

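H3K9me3 ChIP-seq of E14TG2a.4 cells was deposited as enriched regions for 2 biological replicates. Per the deposited file lists, the replicated mm10 list derives from the pooled and per-replicate lists; what the third mm9 list pools is not stated. Neither the aligner nor the peak caller is named in the sources used here. The fold enrichment of each region is a ratio deposited by the authors, called separately in each list and used only to describe, rank or filter regions. The mm10 lists give −log10 p and −log10 q and a display score, as deposited by the authors, and the score was not used. The mm9 lists give a linear p-value and q-value as deposited, and all mm9 boundaries are multiples of 200 bp. Region width differs between the lists together with build and annotation, and its own effect on the counts was not tested.

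Regions were set against GENCODE M1 (mm9) and RefSeq GRCm38.p6 (mm10) on chromosomes 1 to 19, X and Y, with an overlap of 1 bp counting. No coordinates were converted between builds. The last coding exon is that of the transcript with the longest coding sequence. Fingers were matched as C2H2 patterns in the translated sequence. Copy numbers of 32-base words were counted over the mm9 genome on both strands. Python 3.11.15, NumPy 2.4.6, numba 0.67.0 and matplotlib 3.10.9 were used, and the overlap and word-counting code was tested on simulated data.

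No test was made, since 2 replicates of 1 group without a control allow none. Replicates are separate biosamples of 1 line, so their spread may be mostly technical. The members, the gene lists and the naming rule were chosen with earlier results of these data known. That rule named every member with a marked promoter, the 10 with the most covered mm10 body, the 5 of at least 5 kb with the least, the 3 closest outside the promoter window, and marked genes of the pathway list. Ties for the least covered body were taken in symbol order. Further genes named by coding, finger or mm9 body coverage, or by their stretch without regions, were chosen after their values were seen. Alternatives were each replicate alone, other lists, thresholds, windows and symbol rules. A few members are counted in every total but are not reported by name or drawn here.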

Additional observations from a re-analysis of the deposited data

How the results depend on the processing

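Of 40 alternatives, 24 kept their count within 1.5 times of the value reported, or their share within the spread between replicates. The 7 marked promoters became 3 at a fold enrichment of at least 4, 12 with 5 kb either side, 4 with the 5′ end only and 1 with mm10 peaks and RefSeq starts, and were 7 to 8 with each replicate left out. The 10 members marked on a coding exon became 2 at a fold of at least 4 and 4 with at least 500 bp covered, and were 10 to 11 with each replicate left out. The 11.4% of coding bases became 20.1% with the third mm9 list, 3.87% at a fold of at least 4, 3.75% without the Zfp808 to Zfp934 group and 12.7% with symbols of digits only, and was 12.3% to 13.9% with each replicate left out. The 5 members with at least 10% of the mm10 body covered became 8 at 5% and 2 at 20%, and were 2 without replicate 2 and 6 without replicate 1. The 4.76% of body bases became 12.2% in mm9 and 2.61% without the Zfp808 to Zfp934 group, and was 3.39% to 5.67% with each replicate left out. The cause of these moves was not tested. The mm10 promoter count, the digits-only rule and the removal of that group, 8 alternatives in all, were chosen after seeing the data. No paired analysis was possible because the replicates form 1 group. Depth is unknown, so weak marks may be missed at the members reported without a region.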
